A study of Mus musculus with 2 samples.

Results

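Complement was described here through 9 genes in mouse lung cells: *C3*, *C4b*, *C7*, *C1s1*, *C1ra* and *Serping1*, chosen as genes of stromal cells, and *C1qa*, *C1qb* and *C1qc*, chosen as genes of macrophages. They are 9 of the 32285 genes listed in the files, and each was matched by its gene identifier. The cells were live UV-positive cells, sorted by the fluorescence of their own retinoids out of digested lungs. All came from wild type C57BL/6 mice, 3 months old and male, and made up 2 libraries of a single condition. The number of mice behind a library is not given in the sources used here, so the spread between the libraries may be technical. Sorting on retinoid fluorescence decides which cells were seen, and immune, endothelial and epithelial cells here are those that passed that gate.

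Complement is a cascade of plasma proteins that marks surfaces for removal and recruits leukocytes. In the classical pathway, C1q (made of the chains encoded by *C1qa*, *C1qb* and *C1qc*) binds its target and activates the proteases C1r and C1s, which cleave C4 and C2 and so lead to cleavage of C3. C7 is part of the terminal complex that inserts into membranes, and the C1 inhibitor encoded by *Serping1* blocks C1r and C1s. Most circulating components come from the liver, whereas C1q is known as a product of macrophages and dendritic cells, and fibroblasts of many tissues transcribe early components.

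The files list 9669 barcodes with 48762735 UMIs (counted transcript molecules) for library 1 and 10050 with 93970185 for library 2. Barcodes needed 200 detected genes and no more than 10% of UMIs from mitochondrial transcripts to be kept (9634 and 9988), and 8897 and 8233 of these passed exactly 1 gate of at least 3 summed UMIs. The gates were *Col1a2*, *Mfap4* and *Pdgfra* for stromal cells (7645 and 7438 cells), *Cdh5*, *Pecam1* and *Egfl7* for endothelial cells (56 and 360), *Epcam*, *Cdh1* and *Lamp3* for epithelial cells (930 and 101) and *Ptprc*, *Laptm5* and *Cd52* for immune cells (266 and 334). Barcodes that passed 2 or more gates (420 and 1640) were left out of the groups, and only 23 barcodes occurred in both libraries. Other markers followed the gates: the summed CPM (UMIs of a gene over all UMIs of the group, scaled to the same total in every group) of *Cldn5*, *Plvap*, *Tie1* and *Emcn* was 7747 and 5634 in endothelial cells against 3.49 and 5.66 in stromal cells, and that of *Tyrobp*, *Fcer1g*, *Coro1a* and *Lcp1* was 8130.0 and 4419 in immune cells against 7.18 and 5.97. The lists for epithelial and stromal cells were less confined. *Krt8*, *Krt18*, *Cldn18* and *Sftpc* summed to 246747 and 197445 CPM in epithelial cells. Elsewhere they summed to 431 and 125 CPM (stromal), 519 and 188 CPM (endothelial) and 481 and 136 CPM (immune). *Col1a1*, *Col3a1*, *Col6a1* and *Bgn* summed to 4416 and 4761 CPM in stromal and 293 and 185 CPM in endothelial cells. The endothelial class of library 1 was small (119534 UMIs in all), so that 3 UMIs there equal 25.1 CPM.

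Stromal cells were divided by UMIs of *Dcn*, decorin: at least 3 (1017 and 998 cells, the adventitial group of the gating rule), 1 to 2 (823 and 895) and 0 (5805 and 5545, the alveolar group). These are called Dcn-high, Dcn-low and Dcn-negative below, because the markers matched those names only in part. Adventitial markers were higher in Dcn-high cells (*Col14a1* 284 and 224 CPM against 32.6 and 33.0 CPM, *Pi16* 204 and 46.5 CPM against 0.597 and 0.309 CPM). The gap was smaller for the sum of all 6 adventitial markers checked, 3347 and 1670 CPM against 1843 and 794 CPM. Beside those named, the 6 were *Clec3b*, *Serpinf1*, *Dpt* and *Lum*. Alveolar fibroblast markers were lower in Dcn-high cells but far from absent (*Npnt* 761 and 1396 CPM against 1973 and 2446 CPM, *Inmt* 5507 and 4887 CPM against 7447 and 6873 CPM). Dcn-high cells were also deeper, with a median of 6034 and 10655.5 UMIs against 3958 and 6545.

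On GRCm38 (GENCODE M21) the 3 C1q genes lie side by side on the minus strand of chromosome 4, *C1qb* at 136880129 to 136886187, *C1qc* at 136889804 to 136893065 and *C1qa* at 136895917 to 136898803, with gaps of 3616 and 2851 bases. The protease genes *C1ra* (chromosome 6, 124512405 to 124523443, plus strand) and *C1s1* (chromosome 6, 124530345 to 124542359, minus strand) are 6901 bases apart. *C4b* (34728380 to 34743882) and *C3* (57203970 to 57228136) are on chromosome 17, *C7* is on chromosome 15 (4988762 to 5063740) and *Serping1* on chromosome 2 (84765387 to 84775444), all on the minus strand. Of the 9 genes, 6 had a promoter window in the RefSeq table (GRCm38.p6), running from 250 bases before to 50 bases after the annotated start. Those of the neighbouring *C1qb* and *C1qc*, of *C3* and *C1ra*, which were highest in Dcn-high cells, and of *C7*, which was not, are printed 5′ to 3′ so that these patterns can be read beside the sequence. *C1s1*, also highest in Dcn-high cells, had 2 windows, which are not printed.
*C1qb*, chr4:136886151-136886450, minus strand: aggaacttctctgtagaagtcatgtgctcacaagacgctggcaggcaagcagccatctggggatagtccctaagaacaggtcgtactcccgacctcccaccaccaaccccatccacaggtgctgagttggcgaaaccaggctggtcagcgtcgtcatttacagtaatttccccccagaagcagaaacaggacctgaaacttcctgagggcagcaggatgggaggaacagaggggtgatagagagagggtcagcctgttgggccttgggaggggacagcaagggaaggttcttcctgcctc
*C1qc*, chr4:136892865-136893164, minus strand: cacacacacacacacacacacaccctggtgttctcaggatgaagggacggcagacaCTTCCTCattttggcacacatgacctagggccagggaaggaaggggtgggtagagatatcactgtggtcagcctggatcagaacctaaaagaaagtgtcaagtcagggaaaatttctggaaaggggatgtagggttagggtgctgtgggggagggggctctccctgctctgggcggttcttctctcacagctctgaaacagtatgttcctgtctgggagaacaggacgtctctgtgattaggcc
*C3*, chr17:57228087-57228386, minus strand: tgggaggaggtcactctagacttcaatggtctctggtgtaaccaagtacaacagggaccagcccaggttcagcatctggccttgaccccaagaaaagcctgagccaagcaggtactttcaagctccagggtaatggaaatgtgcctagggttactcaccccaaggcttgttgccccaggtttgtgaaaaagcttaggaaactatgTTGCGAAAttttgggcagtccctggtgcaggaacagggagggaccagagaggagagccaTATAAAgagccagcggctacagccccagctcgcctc
*C1ra*, chr6:124512371-124512670, plus strand: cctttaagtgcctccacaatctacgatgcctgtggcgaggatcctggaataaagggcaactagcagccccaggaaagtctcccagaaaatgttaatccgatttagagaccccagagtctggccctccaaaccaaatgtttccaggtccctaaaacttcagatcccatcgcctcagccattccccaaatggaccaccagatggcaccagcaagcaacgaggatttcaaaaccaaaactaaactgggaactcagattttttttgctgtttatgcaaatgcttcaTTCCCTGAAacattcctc
*C7*, chr15:5063724-5064023, minus strand: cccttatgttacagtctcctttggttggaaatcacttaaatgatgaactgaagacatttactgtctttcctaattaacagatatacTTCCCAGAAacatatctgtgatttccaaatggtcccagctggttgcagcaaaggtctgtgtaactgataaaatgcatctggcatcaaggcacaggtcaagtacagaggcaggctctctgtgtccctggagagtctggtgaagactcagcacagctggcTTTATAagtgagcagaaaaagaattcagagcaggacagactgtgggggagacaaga
Capitals mark matches, on either strand, to 5 motifs: C/EBP (TTGCGNAA), PU.1 (GAGGAAG), GAS (TTCNNNGAA), NF-kB (GGG, any 3 bases, then TTCC) and the TATA box (TATAAA). No marked matches overlap. Positions are counted from 0 at the annotated start of RefSeq. That start lies upstream of the GENCODE gene given above for *C7* and *C1qb*. For *C1ra* and *C1qc* it lies inside the GENCODE gene, so that most of the window of each is within the gene. The *C3* window held the C/EBP letters at -45 to -38, which 0.798% of all 32851 windows hold, and TATAAA at 14 to 19 (13.6% of windows). GAS letters stood at -164 to -156 in *C7* and at 32 to 40 in *C1ra* (8.30% of windows), and *C7* also held TATAAA on the opposite strand at -6 to -1. In *C1qc* the PU.1 letters stood on the opposite strand at -194 to -188 (13.6% of windows). The NF-kB letters, present in 5.56% of windows, were in none of these windows, and no motif of the 5 was found in that of *C1qb*. Neither window of *C1s1* held any of the 5 motifs. A match is a description of letters and not a binding site.

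The stromal genes were detected at high levels in stromal cells of both libraries and near background almost everywhere else. *Serping1*, the C1 inhibitor gene, stood at 1753 CPM in stromal cells of library 1 and 1593 CPM in those of library 2, and 98.1% and 99.6% of these cells held at least 1 UMI. *C3*, the central component, had 529 and 822 CPM and *C7* had 485 and 651 CPM. The level of *C4b* was 463 and 446 CPM, that of *C1s1* 233 and 295 CPM and that of *C1ra* 206 and 147 CPM. Library 2 was the higher one for *C3*, *C7* and *C1s1* and the lower one for *C4b*, *C1ra* and *Serping1*. Of all UMIs of these 6 genes in kept cells, 86.2% (*C3*) to 94.5% (*C4b*) were in the stromal class in library 1 and 81.1% (*C3*) to 86.4% (*C7*) in library 2. Of 114825 *Serping1* UMIs in library 2, 93367 were in stromal cells and 74, 11 and 10 in endothelial, epithelial and immune cells. The rest of them lay in barcodes outside these classes.

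**Figure D1:**
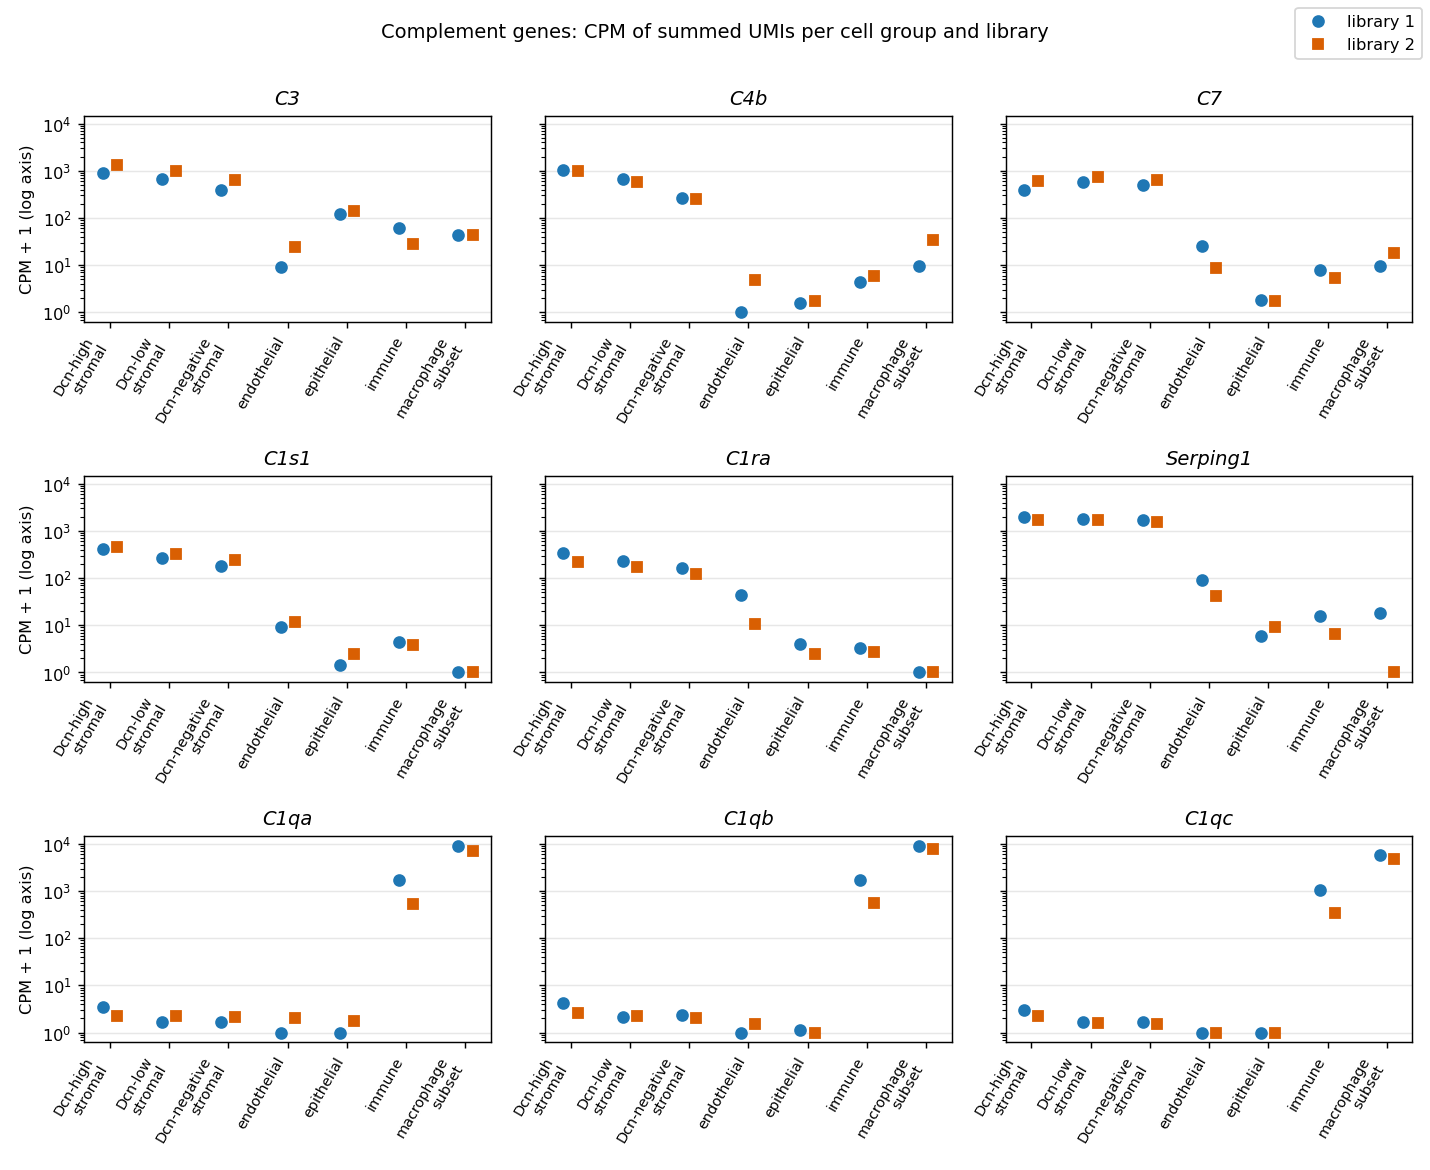
CPM + 1 on a log axis for the 9 complement genes (panels) in the cell groups (x axis), 1 point per library. The 6 stromal genes lie at 121 CPM or more in every stromal group, and the 3 C1q genes lie at 4826 CPM or more in the macrophage subset and below 4 CPM in every stromal group.

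Each of the 6 genes was higher in stromal than in endothelial, epithelial and immune cells (edgeR quasi-likelihood test on UMIs summed per class and library, library as a block, Benjamini-Hochberg adjustment over 11819 genes). Against endothelial cells, 6 of the 9 genes were called higher and none lower, where 17.4% of all genes tested were called higher. Nothing is read from this count or from those given below for epithelial and immune cells. The 6 genes were chosen as stromal genes, with earlier results of these data known. The log2 fold changes ran from 3.70 ± 0.35 (SE) for *C1ra* (adjusted p = 2.87e-09) to 7.18 ± 0.41 for *C4b* (adjusted p = 2.33e-13). Endothelial cells held only 0 and 7 UMIs of *C4b*, so the size of its fold change depends on how near-empty sums are handled. Of *Serping1*, endothelial cells held 92.0 CPM in library 1 and 40.0 CPM in library 2, from 11 and 74 UMIs, both far below the stromal values, and its log2 ratio of stromal to endothelial CPM was 4.25 in library 1 and 5.31 in library 2. *C1ra* held 41.8 CPM there from only 5 UMIs in library 1 and 9.74 CPM in library 2, and the same ratio was 2.30 and 3.91. That was 20.3% and 6.64% of its stromal level, where 11 stromal reference genes had a median of 5.37% and 3.35%.

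Epithelial cells were the exception for *C3*. These cells carried surfactant transcripts (*Sftpc* made up at least 5% of the UMIs in 930 of 930 and 95 of 101 cells, as in alveolar type 2 cells), and they held 121 CPM of *C3* in library 1 and 141 CPM in library 2. The other 5 stromal genes were between 0.462 and 8.06 CPM in the same cells. *C3* was lower than in stroma (log2 fold change 1.82 ± 0.29 for stromal over epithelial cells, adjusted p = 9.82e-06), while the fold changes of the other 5 ran from 5.67 ± 0.34 for *C1ra* to 8.97 ± 0.40 for *C4b*. The *C4b* value rests on near-empty sums, with 5 and 1 epithelial UMIs. In epithelial cells, 60.9% and 72.3% held a *C3* UMI, and 20.5% and 19.8% did after each cell was thinned to 2000 UMIs. For comparison, the 11 stromal reference genes had a median epithelial level of 0.687% and 1.38% of their stromal level. Their range was wide, from 0.204% to 91.4% in library 1 and 0.182% to 84.2% in library 2, with *Ces1d*, a carboxylesterase, at the top in both. With some of these genes so high in epithelial cells, the list cannot measure stray stromal RNA. *C3* stood at 22.8% and 17.1% of its stromal level, above the medians and inside these ranges, against 0.113% to 1.46% for the other 5 genes.

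Immune cells held less *C3* and little of the rest. *C3* had 60.4 CPM in library 1 and 27.6 CPM in library 2, which was 11.4% and 3.36% of the stromal level, where the reference genes had a median of 1.36% and 1.10% and a highest value of 49.6% and 62.9% (*Serpinf1*). Of its 53 and 50 UMIs, 35 and 24 were in monocytes (111 and 55.7 CPM). For *C3*, stromal cells exceeded immune cells by a log2 fold change of 3.72 ± 0.34 (adjusted p = 7.46e-10), with ratios of 3.13 in library 1 and 4.90 in library 2. For the other 5 genes it ran from 6.19 ± 0.41 (*C1ra*) to 7.25 ± 0.38 (*Serping1*), and their immune levels were 0.346% to 1.47% of stroma. The *C1ra* value rests on near-empty sums, with 2 and 3 immune UMIs. The *Serping1* ratio was 6.89 in library 1 and 8.17 in library 2, and that of *C7* was 6.15 and 7.20. Against epithelial cells the 6 stromal genes were called higher, as were the traces of the 3 C1q genes described further on, and 0 were called lower, where 24.1% of all genes were called higher and 21.8% lower. Against immune cells 6 were called higher and 3, the C1q genes, lower, where 27.0% and 23.7% of all genes were. These fold sizes depend on how the groups are formed: with cells thinned to 2000 UMIs before gating, the stromal over immune value was 2.96 for *C1ra* and 3.87 for *Serping1*, and the stromal over epithelial value of *C4b* was 5.40, all still called, whereas cells thinned in their full-depth groups gave 6.98 and 7.40 for the first pair.

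**Figure D2:**
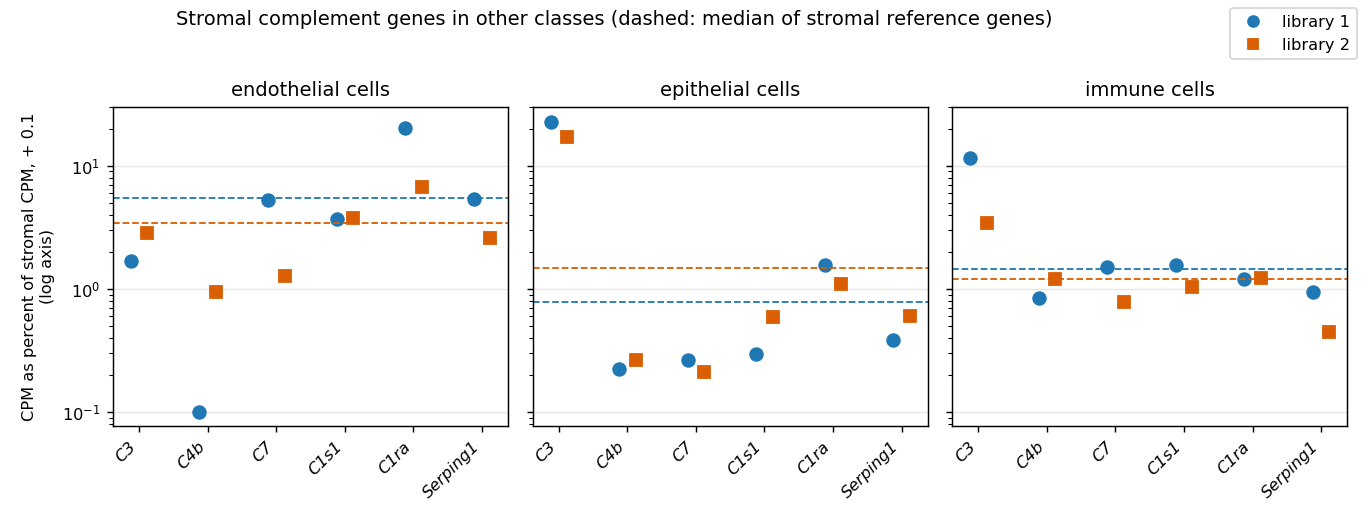
Level of the 6 stromal genes in endothelial, epithelial and immune cells as a percent of their stromal CPM (log axis, 0.1 added), 1 point per library, with the median of 11 stromal reference genes as a dashed line in the color of the library. *C3* in epithelial cells (22.8% and 17.1%) lies above the lines at 0.687% and 1.38%. It lies inside the range of the reference genes (0.204% to 91.4% and 0.182% to 84.2%). The other 5 genes lie between 0.113% and 1.46% there.

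Among stromal cells, *C4b*, *C3*, *C1s1* and *C1ra* were higher in Dcn-high than in Dcn-negative cells, *Serping1* was higher by a small step and *C7* did not pass the test. The *C4b* level, that of the classical pathway component C4, was 1044 CPM in Dcn-high cells of library 1 and 979 CPM in those of library 2, 664 and 586 CPM in Dcn-low cells and 268 and 257 CPM in Dcn-negative cells. The groups did not overlap, and the log2 fold change of Dcn-high over Dcn-negative cells was 1.99 ± 0.07 (adjusted p = 9.61e-08). *C3* had 908 and 1335 CPM in Dcn-high, 677 and 1011 CPM in Dcn-low and 399 and 629 CPM in Dcn-negative cells. Library 2 was higher in each of these groups, so that Dcn-high and Dcn-low values overlapped, but within each library the order was the same, with a log2 fold change of 1.18 ± 0.07 (adjusted p = 1.85e-06).

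The protease genes followed. *C1s1* had 405 and 449 CPM in Dcn-high, 259.7 and 330.2 CPM in Dcn-low and 182 and 242 CPM in Dcn-negative cells (log2 fold change 1.06 ± 0.08, adjusted p = 1.08e-05). *C1ra* had 345 and 217 CPM, 232 and 167 CPM, and 163 and 121 CPM in the same order (log2 fold change 0.999 ± 0.081, adjusted p = 1.34e-05). For both, every Dcn-high value lay above every Dcn-negative value, and only the Dcn-high and Dcn-low values of *C1ra* overlapped. *Serping1* moved little, with 1960.2 and 1714 CPM in Dcn-high against 1692 and 1539.9 CPM in Dcn-negative cells (log2 fold change 0.23 ± 0.07, adjusted p = 0.0305). These values did not overlap, but those of Dcn-low cells (1778 and 1673 CPM) overlapped with both. *C7*, of the terminal complex, was not called, with 393 and 593 CPM against 492 and 648 CPM in overlapping groups (log2 fold change -0.18 ± 0.07, adjusted p = 0.0687).

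Of the 9 genes, 6 were called higher in Dcn-high cells (*C4b*, *C3*, *C1s1*, *C1ra*, *Serping1* and *C1qc*) and 0 lower, where 16.8% of 12512 genes tested were called higher and 14.9% lower. The median log2 fold change of all genes tested was -0.02, and that of the 9 genes was the value of *C1ra*. Nothing is read from this count or median, because the 9 genes were chosen with earlier results of these data known. Without the library block, 1 gene (*C4b*) was called, and 157 genes in all against 3967. The calls of *Serping1* and *C1qc* were lost when only the Dcn-high and Dcn-negative cells were fitted (adjusted p = 0.182 and 0.0566) and when all 6 groups shared a fit (adjusted p = 0.619 and 0.0514). Since the groups differ in depth, the fit was repeated on cells thinned to 2000 UMIs each and kept in the groups formed at full depth, an alternative chosen after the data had been seen. The log2 fold changes were then 2.19 for *C4b*, 1.30 for *C3*, 1.17 for *C1s1*, 1.10 for *C1ra* and 0.22 for *Serping1*, all called, and -0.12 for *C7* (adjusted p = 0.304). When the groups were formed anew from the thinned cells, which left 649 and 505 Dcn-high cells, *C7* was called lower (-0.35 ± 0.10, adjusted p = 0.0106), as it was without a filter on low counts (adjusted p = 0.0222).

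**Figure D3:**
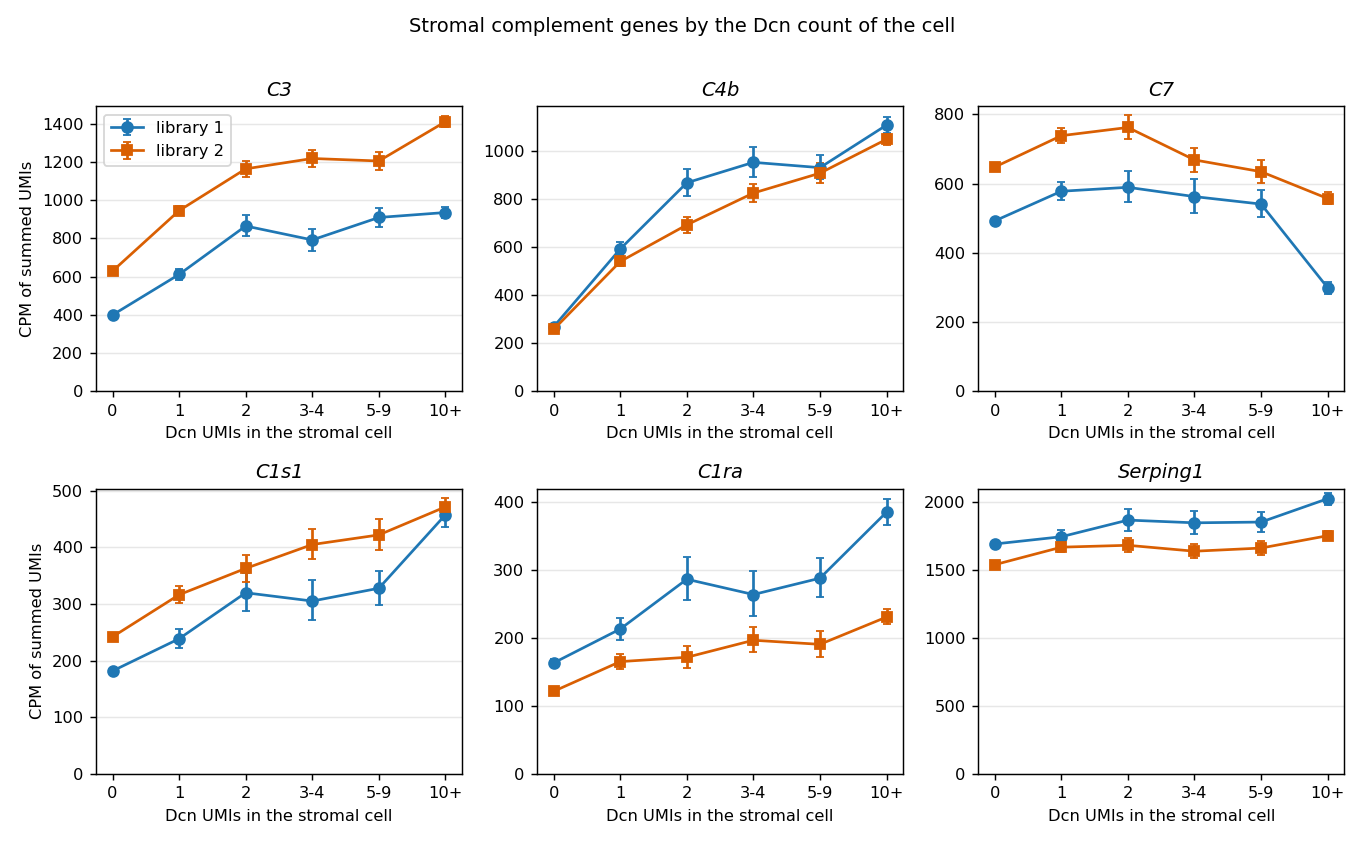
CPM of the 6 stromal genes (y axis) in stromal cells grouped by their *Dcn* UMIs (x axis), 1 line per library, with exact 95% Poisson intervals that cover counting error only. *C4b* climbs from 268 and 257 CPM at 0 UMIs to 1107 and 1048 CPM at 10 or more, and *C7* is highest at 2 UMIs and lowest at 10 or more.

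Finer steps of *Dcn*, chosen after the data had been seen and not tested, showed different shapes. *C4b* reached 1107 and 1048 CPM in cells with 10 or more *Dcn* UMIs (601 and 588 cells), and *C3* reached 935 and 1410.0 CPM. *C1ra* had 385 and 231 CPM in these cells. *C7* went the other way at the top: it had 589 and 762.4 CPM at 2 *Dcn* UMIs and 299 and 557 CPM at 10 or more, below the 492 and 648 CPM of Dcn-negative cells. Within Dcn-high cells, those with at least 2 UMIs of *Pi16*, a marker of adventitial fibroblasts (183 and 60 cells), had 196 and 401 CPM of *C7* against 448 and 611 CPM in cells with 0 (790 and 919 cells). They also held less *C3*, with 709 and 1097 CPM against 974 and 1357 CPM. By contrast, *C1s1* (506 and 645 CPM against 374 and 433 CPM), *C1ra* (470 and 356 CPM against 315 and 205 CPM) and *Serping1* (2269 and 2323 CPM against 1879 and 1665 CPM) were higher in the *Pi16* cells of both libraries, and for *C4b* the values were 1139 and 1412 CPM against 1029 and 947 CPM.

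Stromal cells with at least 2 UMIs of *Hhip* and *Aspn* (239 and 536 cells), genes known from myofibroblast-like lung cells, were described in the same way. Compared with cells that had neither, they held more *C4b* (973 and 763 CPM against 415 and 380.5 CPM) and more *C1s1* (446 and 418 CPM against 215 and 274 CPM). *C7* was 337 CPM against 495 CPM in library 1 and 643 CPM against 647 CPM in library 2, so that only 1 library showed a gap. *C3* was 589 and 917 CPM against 519 and 780.2 CPM, and *C1ra* 369 and 195 CPM against 192 and 136 CPM.

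Single cells carried several of these transcripts together. Whether they did so more often than the detection of each gene alone would give was not tested. *Serping1* alone had a UMI in 97.5% and 95.3% of Dcn-high cells at 2000 UMIs per cell. At 2000 UMIs per cell, 4 or more of the 6 stromal genes had a UMI in 64.6% of 1000 Dcn-high cells of library 1 and 70.9% of 998 in library 2. The share was 47.4% and 53.8% in Dcn-low cells and 25.5% and 31.6% in Dcn-negative cells. Cells without any of the 6 genes were rare, at most 0.818% of a group.

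**Figure D4:**
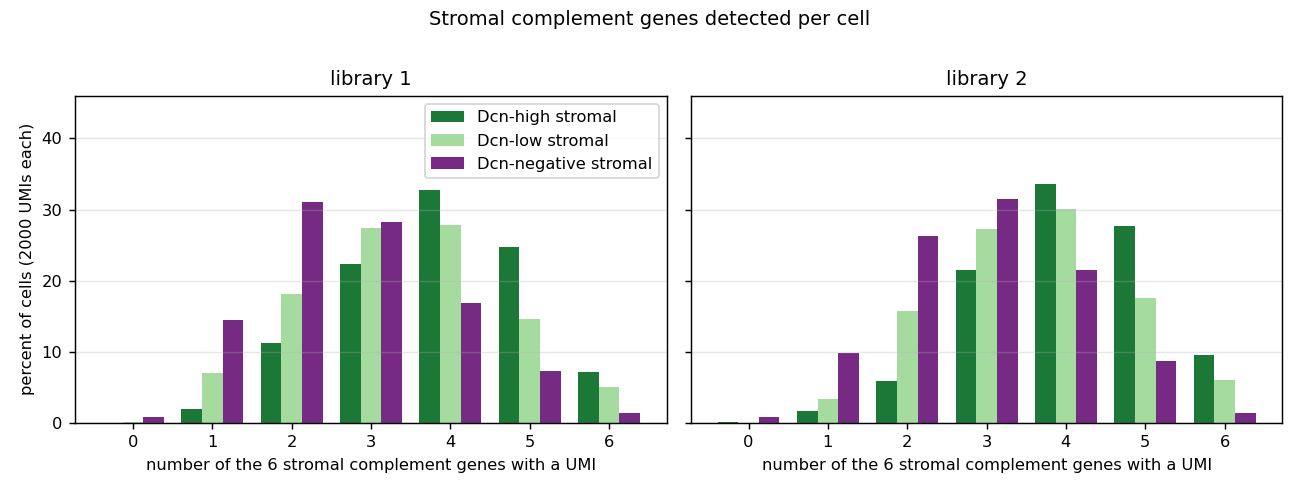
Percent of stromal cells (y axis) by the number of the 6 stromal complement genes with at least 1 UMI (x axis), each cell thinned to 2000 UMIs, in panels by library. Dcn-high cells peak at 4 genes in both libraries, and Dcn-negative cells at 2 genes in library 1 and 3 in library 2.

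The C1q genes were high in a macrophage subset and at 0 in the few alveolar macrophages. Immune cells were given a subset where 1 of 7 marker lists held at least 3 UMIs and at least 2 times those of the next list. That gave 30 and 18 macrophages (from a list of 6 markers that includes *Ms4a7*, *Pf4*, *Cd163*, *Folr2* and *Stab1*), in which each of the 6 markers was detected in both libraries and all 5 markers of alveolar macrophages were at 0. Macrophages held 9055 CPM of *C1qa* in library 1 and 7138 CPM in library 2, *C1qb* had 9142 and 7709.7 CPM, and *C1qc* had 5883 and 4826 CPM. Every macrophage of both libraries held UMIs of all 3 genes. The summed C1q level of single macrophages ran from 14509.7 to 39919 CPM around a median of 24366 CPM in library 1, and from 5175 to 25052 CPM around 20077 CPM in library 2. The C1q UMIs of macrophages were divided almost alike in the libraries, with 37.6% and 36.3% from *C1qa*, 38.0% and 39.2% from *C1qb* and 24.4% and 24.5% from *C1qc*.

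Alveolar macrophages, 1 cell in library 1 and 9 in library 2, held 0 UMIs of each C1q gene. Other immune subsets held C1q in few cells. Counting barcodes with at least 10 C1q UMIs, there were 30 of 30 and 17 of 18 among macrophages, 0 of 80 and 3 of 70 among monocytes, 1 of 16 and 0 of 27 among dendritic cells, and 0 among neutrophils, T and NK cells and B cells of either library. The 80 monocytes without one allow a share of up to 4.51% (exact binomial 95% limit). *C1qa* in monocytes was 6.32 CPM in library 1 and 195 CPM in library 2, where the 3 cells gave 205 of the 216 C1q UMIs. In dendritic cells it was 313 CPM in library 1, where 1 cell gave 83 of 88 C1q UMIs, and 3.67 CPM in library 2. Of immune cells that no list claimed, 12 of 37 in library 1 and 1 of 32 in library 2 had at least 10 C1q UMIs, and of these 12, 11 also held UMIs of the macrophage list and 10 of the monocyte list.

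**Figure D5:**
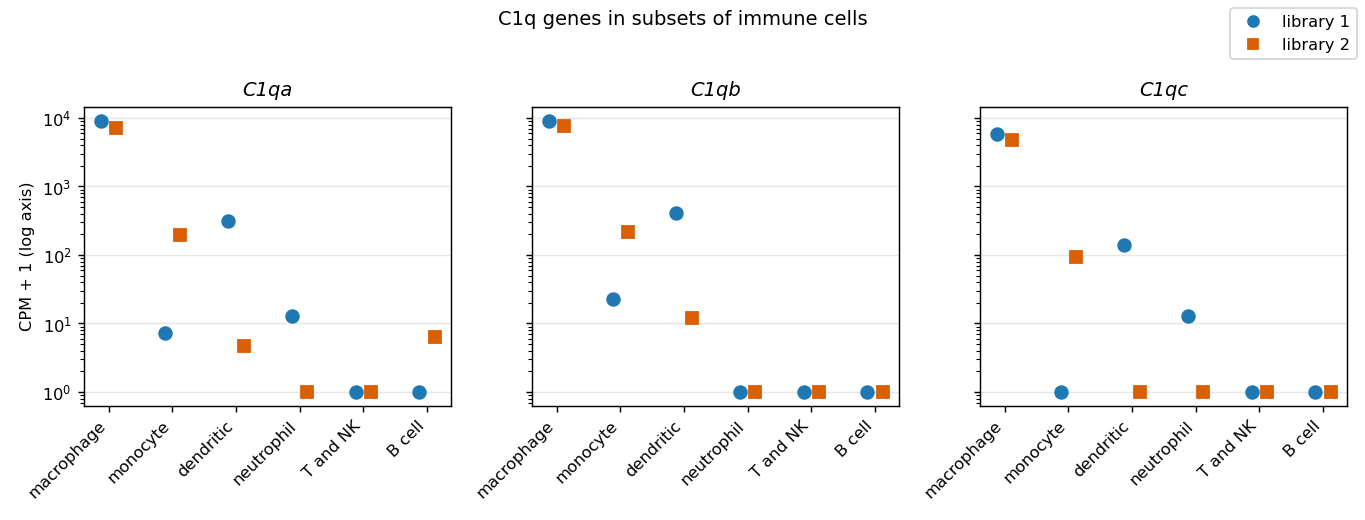
CPM + 1 (log axis) of *C1qa*, *C1qb* and *C1qc* in 6 subsets of immune cells, 1 point per library. The macrophage points lie between 4826 and 9142 CPM, and the next highest point, *C1qb* of dendritic cells in library 1, lies at 411 CPM.

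With all other immune cells summed together, the log2 ratio of macrophages to the rest was 4.02 in library 1 and 6.88 in library 2 for *C1qa*, 3.95 and 6.89 for *C1qb* and 4.25 and 7.47 for *C1qc*. The libraries thus differed widely in the size of this gap. In library 1, 389 of the 424 *C1qa* UMIs outside macrophages were in the immune cells that no list claimed, against 17 of 103 in library 2. Against the mean of 5 other subsets, the fitted log2 fold changes were 9.36 ± 0.66, 10.55 ± 0.72 and 9.87 ± 0.66 in the same order of genes, values that depend on how near-empty sums are handled, since several of those sums held 0 to 2 C1q UMIs. The 3 genes were all called higher, where 15.9% of 2616 genes were called higher and 5.39% lower. Nothing is read from that count, because they were chosen as macrophage genes and were the only ones of the 9 to pass the filter on low counts. DESeq2 did not call *C1qc* (adjusted p = 0.0663). The stromal genes were rare in macrophages: *C1s1* and *C1ra* had 0 UMIs in both libraries, which allows up to 26.1 and 25.2 CPM at 3 UMIs (the upper exact 95% Poisson limits are 32.1 and 31.0 CPM), and *C3* had 5 and 5 UMIs (43.4 and 42.0 CPM).

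Most C1q-rich barcodes of library 2 lay outside the groups. Over all kept cells, 74 and 83 barcodes held at least 10 C1q UMIs, and these carried 97.1% and 96.8% of all C1q UMIs. Among them, 28 (37.8%) and 61 (73.5%) passed 2 or more gates, and every one of these passed both the stromal and the immune gate. They had a median of 10242 and 17624 UMIs, against 3799 and 6654 in macrophages. Their summed C1q level was 6882 and 4528 CPM, against 24079 and 19674 CPM in macrophages, and they also held stromal complement transcripts, such as 706 and 760.0 CPM of *C3* and 1031 and 938 CPM of *Serping1*. Whether they were pairs of cells was not tested. In the whole immune class *C1qa* was at 1672 and 525 CPM, and 43 of 266 and 21 of 334 of its cells were C1q-rich.

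In stromal cells the C1q genes were traces. *C1qa* had 1.03 and 1.16 CPM, *C1qb* 1.67 and 1.18 CPM and *C1qc* 0.938 and 0.700 CPM, which was 0.0613% to 0.0974% of the immune level in library 1 and 0.205% to 0.221% in library 2. For comparison, 5 immune reference genes stood at 0.0444% to 0.188% in library 1 and 0.0698% to 0.182% in library 2, so that the C1q genes lay inside that range in library 1 and above it in library 2. The immune level used as the base was lower in library 2 (*C1qa* 1672 and 525 CPM). There, 5585 of 8368 C1q UMIs of kept cells were in barcodes with 2 or more gates, which are outside the immune class. The fitted log2 fold change, stromal over immune, was -9.98 ± 0.46 for *C1qa*, -9.72 ± 0.36 for *C1qb* and -9.78 ± 0.37 for *C1qc*. The ratio of *C1qa* was -10.67 in library 1 and -8.82 in library 2. With cells thinned before gating it was fitted as -6.74, and with cells thinned in their full-depth groups as -10.11. Epithelial cells had at most 1 UMI of each C1q gene in a library, and the fit called the stromal traces higher than that. All 3 calls were lost without the library block (adjusted p = 0.182, 0.0758 and 0.103 for *C1qa*, *C1qb* and *C1qc*) and with cells thinned in their full-depth groups, and that of *C1qa* also with DESeq2 (adjusted p = 0.369). The *C1qc* call in Dcn-high cells (log2 fold change 1.44 ± 0.41, adjusted p = 0.0231) rested on 13 and 15 UMIs against 16 and 21, and was also lost with DESeq2 (adjusted p = 0.249) and with gates at 5 UMIs (adjusted p = 0.184). A single cell in each library gave 12 of 50 and 18 of 48 of the C1q UMIs of the Dcn-high group.

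Close copies of 3 of the genes are annotated nearby. Annotated transcripts of *C4b* and *C4a* are identical at 96.1% of aligned bases, those of *C1ra* and *C1rb* at 98.0% and those of *C1s1* and *C1s2* at 95.9%. In kept cells, *C4a* had 21 and 24 UMIs against 16708 and 30709 of *C4b*, *C1rb* had 1 and 13 against 7474 and 10449 of *C1ra*, and *C1s2* had 3 and 7 against 8472 and 20966 of *C1s1*. How reads shared by a pair were counted was not tested, so the values of the pairs are uncertain.

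The other 45 genes of the complement lists were mostly low: 16 were under 1 CPM in each of the 6 groups and 19 reached 20 CPM in at least 1. Between Dcn-high and Dcn-negative cells, 18 were tested, of which 7 were called higher and 5 lower, with a median log2 fold change of 0.05, where 16.8% of all genes tested were called higher and 14.9% lower. Of the initiation list, *C2*, the partner of C4 in the C3 convertase, followed *C4b*, with 113 and 117 CPM against 35.5 and 32.8 CPM (log2 fold change 1.80). *Colec11*, a collectin below 20 CPM, was also called higher, and *Colec12*, a scavenger receptor of the collectin family, was lower (460.3 and 526 CPM against 541 and 651 CPM, log2 fold change -0.23). *Cfb*, factor B of the alternative pathway, had 81.5 and 65.7 CPM against 45.5 and 39.4 CPM (0.83), whereas *Cfp*, properdin, had 174 and 101 CPM in macrophages and at most 1.94 CPM in stromal groups. *Cfb* was 136 and 140.2 CPM in the *Pi16* cells.

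The terminal components were divided between cell classes. *Hc*, which encodes C5, had 1732 and 1537 CPM in epithelial cells and at most 3.71 CPM in a stromal group. *C6* had 108 and 95.2 CPM in epithelial cells and was lower in Dcn-high (6.79 and 8.89 CPM) than in Dcn-negative cells (23.6 and 26.6 CPM, log2 fold change -1.63, adjusted p = 6.24e-06). *C8a*, *C8b*, *C8g* and *C9* were each under 1 CPM in every group. *C7* was thus the only gene of that list above 20 CPM in Dcn-high stromal cells, and only *Hc* and *C6* passed the filter beside it.

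Of 13 other regulators, 9 were tested between Dcn-high and Dcn-negative cells, and 4 were called higher and 1 lower. Of all genes tested, 16.8% were called higher and 14.9% lower, and the median log2 fold change of the 9 regulators was 0.12. *Clu*, clusterin, had 32.6 and 12.4 CPM against 3.37 and 3.71 CPM (log2 fold change 2.51), below its 293 and 241 CPM in endothelial and 119 and 89.3 CPM in epithelial cells. *Cd55*, a decay accelerator of convertases, had 34.8 and 30.1 CPM against 23.9 and 20.1 CPM (0.60), and *Csmd1*, below 20 CPM, was also called higher. *Cd59b* was lower (26.9 and 13.8 CPM against 37.7 and 18.6 CPM, -0.41), and for its neighbour *Cd59a*, also an inhibitor of the terminal complex, the values were 55.6 and 58.4 CPM against 59.6 and 49.8 CPM. *Cr1l* lay between 22.3 and 115 CPM in all 6 groups.

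Of the receptors, 7 of 8 tested were called lower in stromal than in immune cells, where 23.7% of all genes were, and 1 of 8, *Cd93*, was called lower in stromal than in endothelial cells, where 14.7% were. *C3ar1*, the receptor of the C3a fragment, had 235 and 235 CPM in macrophages and at most 0.180 CPM in a stromal group. *C5ar1*, that of C5a, had 330.2 and 269 CPM in macrophages and 661 and 453 CPM in neutrophils. *Itgam*, *Itgax* and *Itgb2*, subunits of the integrin receptors for cleaved C3, had 138 and 113 CPM, 53.6 and 81.1 CPM and 259 and 239 CPM in immune cells. *Cd93* had 510.3 and 1499 CPM in endothelial cells. *C1qbp*, a mitochondrial protein that also binds C1q, was spread over all groups (27.1 to 90.2 CPM). Between macrophages and the mean of the other immune subsets, 10 of the other complement genes were tested and 4 called higher, among them *C3ar1*, *C5ar1* and *Cfp*, and 0 lower. Of all genes tested there, 15.9% were called higher and 5.39% lower. For *C5ar1* the call is against the mean of the subsets only, since neutrophils held more of it than macrophages.

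Patterns over the 12 sums (6 cell groups in 2 libraries) were compared by Pearson correlation of log2(CPM + 1) with 8706 other genes of at least 20 CPM in a group. These r values describe a likeness set mostly by the classes, and sums of a library share its depth. The nearest genes were *Irak1bp1*, *Col16a1* and *Fstl3* for *C3* (r = 0.993, 0.981 and 0.978), *Timp1*, *Cpxm1* and *Htra3* for *C4b* (0.995, 0.994 and 0.994) and *Crispld2*, *Svep1* and *Adamtsl2* for *C7* (0.997, 0.995 and 0.995). For *C1s1* they were *Col1a1*, *Dkk3* and *Col6a3* (0.996, 0.996 and 0.995), for *C1ra* *Hcfc1r1*, *Gm14403* and *Fancc* (0.995, 0.992 and 0.991), and for *Serping1* they included *Ptgis* and *Pcolce* (0.996 and 0.995). The C1q genes were near each other and near *Tyrobp*, a signaling adaptor of myeloid cells: *Tyrobp*, *Il1b* and *C1qb* for *C1qa* (0.998, 0.996 and 0.995), *C1qc*, *Tyrobp* and *C1qa* for *C1qb* (0.999, 0.996 and 0.995), and *C1qb*, *Rdh12* and *Emilin2* for *C1qc* (0.999, 0.997 and 0.997).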

How the data were processed

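The authors sorted UV-positive lung cells, prepared libraries that read transcript 3′ ends (10x Genomics) and deposited raw counts of UMIs per gene and cell barcode, made with Cell Ranger 5.0.1 on mm10 per the labels, without normalization. Cells of a library were grouped by the gates described above, UMIs were summed per group and library, and CPM were taken from these sums. No doublet caller was run. Sums were tested with edgeR 4.0.16 in R 4.3.3 by its two-sided quasi-likelihood test, with TMM scaling, the tool's own low-count filter and a term for the library, since the groups compared are cells of the same libraries, with Benjamini-Hochberg adjustment across the whole table and a threshold of 0.05. Gate genes, and immune list genes in the macrophage fit, were left out. Shares were also taken after thinning cells to 2000 UMIs. Alternatives were RLE, DESeq2 1.42.0, no filter, no block, 1 library at a time, other gates, and cells thinned before or after grouping. The test was tried on simulated counts. The members and lists were chosen with earlier results of these data known. Genes named beyond the members reached 20 CPM in a group, or were the 3 most alike in pattern. Some genes that met this rule are not reported here. The intervals cover counting error only.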

Additional observations from a re-analysis of the deposited data

How the results depend on the processing

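With 2 libraries, the fits have few degrees of freedom. Leaving out a library left no residual degrees of freedom, so only the ratio in the other library is given, with no test: between Dcn-high and Dcn-negative cells it was 1.09 to 1.19 (log2) for *C3*, 1.93 to 1.96 for *C4b*, 0.89 to 1.16 for *C1s1*, 0.84 to 1.08 for *C1ra*, 0.15 to 0.21 for *Serping1* and -0.32 to -0.13 for *C7*. Of 375 tested fold changes under the other alternatives, 349 kept their direction and their side of the threshold, 22 kept the direction and lost the call, 4 gained a call and 0 changed direction. These counts leave out *C1qa*, *C1qb* and *C1qc* between stromal and endothelial cells. Endothelial cells held at most 2 UMIs of each in a library. There *C1qa* did change direction, from a log2 fold change of -0.01 to 0.57 with gates at 5 UMIs, and neither was called. The same genes between stromal and epithelial cells stay in the counts, although epithelial cells held at most 1 UMI of each in a library. Of values without a test, 23 of 48 fold changes in 1 library and 6 of 9 shares of cells were counted as moved. So were 10 of 106 counts of calls. The sizes of the fold changes were less stable: with cells thinned before gating, the stromal over immune value went from 6.25 to 3.16 for *C1s1* and the stromal over epithelial value from 8.05 to 4.54. Without the replicate block, in which each library pairs its own groups, 1 of the 9 genes was called between Dcn-high and Dcn-negative cells in place of 6, and 157 genes in all in place of 3967. In that comparison the count of all genes was 2132 with DESeq2, 1593 with all 6 groups in the fit, 1949 with cells thinned before gating and 2504 with cells thinned in their full-depth groups, an alternative chosen after seeing the data. These kinds of thinning also gave 3452 and 3418 called genes in place of 5432 between stromal and epithelial cells, and 213 and 209 in place of 558 between macrophages and other immune cells, where they tested 1688 and 1054 genes in place of 2616. The causes were not tested. RLE in place of TMM moved the median log2 fold change of stromal over immune cells from 0.13 to 0.01.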
